A study of Ovis aries with 12 samples.

Results

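The genes described are the myogenic regulatory factors MYOD1, MYOG and MYF5 and the muscle growth inhibitor MSTN (myostatin), measured in the biceps femoris of sheep fetuses close to term, a large muscle of the hind limb. A probe was taken where the array named it with one of these 4 symbols or with the gene's sheep RefSeq transcript. That rule found 5 probes, for MYOD1, MYF5 and MSTN. A further 3 probes were taken from the array's own description: both probes of MYOG, which the array lists under a transcript cluster described as myogenin, and a second MSTN probe, listed under a nucleotide record. The 4 genes were thus read by 8 of 15008 probes, with 2 probes each. All 8 were above the detection filter and entered the comparison.

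The 12 fetuses, with 1 single-colour Agilent array each, were 6 whose mothers received cortisol and 6 whose mothers received vehicle. Per the labels, cortisol was given to the ewe at 1 mg/kg/day from about day 115 of pregnancy until tissue was taken at day 139 to 144, as early as possible after labour began, and all fetuses were singletons. Each arm had 7 ewes, of which 6 per arm have an array here. The tissue field names the biceps femoris and the sample titles the biceps, whereas the treatment text names the wall of the left ventricle of the heart.

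MYF5 and MYOD1 commit embryonic cells to the muscle lineage and mark the stem cells and dividing myoblasts of later muscle, and MYOG is switched on as myoblasts leave the cell cycle and fuse into fibres. All 3 are basic helix-loop-helix transcription factors that bind DNA beside E-protein partners. Myostatin is a secreted factor of the TGF-beta family that signals through the activin type II receptors ACVR2A and ACVR2B and the SMAD2 and SMAD3 proteins, and animals that lack it grow more muscle. In adult muscle MYOD1 RNA is richer in fast fibres and MYOG RNA in slow fibres.

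The 60-base probes show how far the readings of a gene are independent. The probes of MYOG and MYF5 are given 5′ to 3′, in the sense of the RNA, with the bases that both probes of the gene share in capitals.
MYOG first probe: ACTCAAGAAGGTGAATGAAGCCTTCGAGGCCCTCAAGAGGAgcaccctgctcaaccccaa
MYOG second probe: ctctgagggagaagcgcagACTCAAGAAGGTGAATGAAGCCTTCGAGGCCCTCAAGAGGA
MYF5 first probe: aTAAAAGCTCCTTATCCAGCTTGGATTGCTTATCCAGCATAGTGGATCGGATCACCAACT
MYF5 second probe: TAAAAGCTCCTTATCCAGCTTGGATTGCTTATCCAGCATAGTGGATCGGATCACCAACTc
The coding probe of MSTN, the only one of the 8 printed on the array at 5 spots, ends with the stop codon of the message, which stands in capitals.
MSTN second probe: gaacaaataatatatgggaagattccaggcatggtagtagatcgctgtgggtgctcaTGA
The MYOG probes share 41 bases and are offset by 19, and the MYF5 probes share 59 and are offset by 1. The MYOD1 probes, not printed, also share 59 bases, whereas the MSTN probes share none, so that MSTN alone is read by separate stretches of its message. The first probe of a gene is the one with the higher mean over the 12 arrays.

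All signals are log2 units relative to the array's 75th percentile of non-control probes, which lay between 187.3 and 446.8 intensity units, and differences are cortisol minus control with 6 arrays per group. The share of probes well above background ran from 66.3% to 76.0% over the arrays. Of 14 skeletal muscle marker genes, 6 were measured, and their summed signal in multiples of the percentile was 814 to 3210 on control arrays and 1760 to 3190 on cortisol arrays. The 6 include MYOD1 and MYOG. The sum comes mostly from TNNC2 and MYL11, with mean log2 signals of 10.24 and 9.76 in controls. None of the 13 cardiac markers is on the array by name, so the label was checked from the skeletal side only. Control array 3 stood apart: the fast myosins MYH1 and MYH2 were at 0.50 and 0.79 there, against at least 4.92 and 4.98 on the other 11 arrays, and the slow myosin MYH7 was at 3.97, against at most 2.04. Results that rest on it are given with and without it. In bulk muscle, fewer cells of a type and less RNA per cell cannot be told apart, and p-values measure the spread among these fetuses only.

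None of the 4 genes differed between the groups past the threshold. In limma with Benjamini-Hochberg adjustment over all probes, 0 of 10730 tested probes (0.0%) had an adjusted p under 0.05, and 732 (6.82%) had an unadjusted p under 0.05. Of the 8 probes 1, the first of MYF5, was among the latter, in the lower direction that held 4.68% of all tested probes. By the first probe of each gene, 3 genes had a lower mean after cortisol and 1 a higher mean, with a median log2 fold change of -0.34. Over all tested probes 54.0% had a lower mean, and the median was -0.02.

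**Figure D1:**
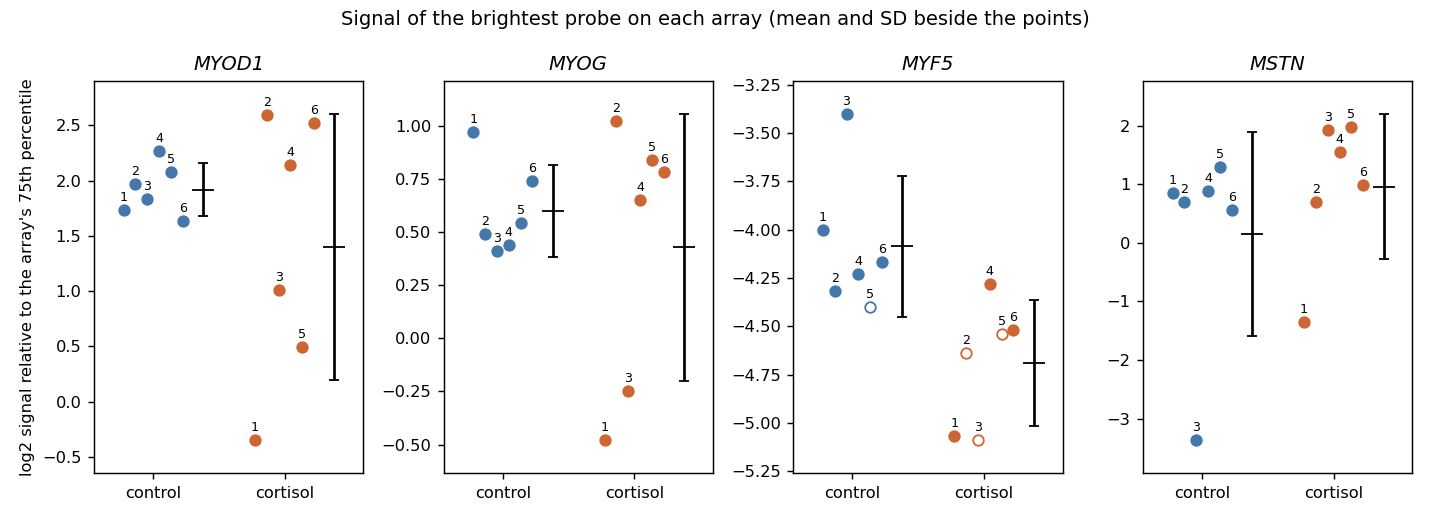
Log2 signal of the first probe of each gene on every array, relative to the array's 75th percentile, with the array's number above its point, open points where the probe was not well above background, and the mean and SD of the 6 arrays beside each group. MYOD1 spans 1.63 to 2.27 in controls and -0.35 to 2.59 after cortisol, MSTN is at -3.37 on control array 3, and the vertical scale differs between panels.

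Over the 12 arrays MYOD1, the determination factor, stood out among the 4 genes by its spread and not by its mean. On control arrays the lowest, median and highest signals were 1.63, 1.90 and 2.27. After cortisol they were -0.35, 1.57 and 2.59. The 6 controls lay close together, whereas cortisol arrays 1, 3 and 5, at -0.35, 1.01 and 0.49, lay below every control and cortisol arrays 2 and 6, at 2.59 and 2.52, above every control. Only cortisol array 4, at 2.14, fell among the controls.

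The mean of MYOD1 was 1.92 ± 0.24 (SD, n = 6) in controls and 1.40 ± 1.2 after cortisol. The log2 fold change was therefore -0.52, with a 95% interval of -1.47 to 0.43. The adjusted p in limma was 0.818, and an exact permutation test of the means, two-sided, gave p = 0.338. Without cortisol array 1 the difference was -0.17, and with array weights it was -0.29. The second probe gave -0.56, and across arrays the probes differed by 0.05 on average with an SD of 0.07.

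The range of MYOD1 was 1.56-fold among controls and 7.68-fold among cortisol arrays. The SD after cortisol was 5.10 times that of controls. A permutation test, two-sided, on absolute deviations from each group's own median gave p = 0.00216, the smallest that 12 arrays allow. The medians were not recomputed for each split, so this p is approximate and may be too small. It was not adjusted over the 4 genes. Cortisol arrays varied more in general, since 70.7% of probes had the larger SD there and the median ratio was 1.34, but 0.924% of 10715 probes with a value on every array had a ratio as large as that of MYOD1. Of these probes 16.9% had at least 3 cortisol arrays below every control, and 1.97% also had at least 2 above. The second MYOD1 probe had an SD ratio of 4.49, which 1.44% of probes reached. Without cortisol array 1 the SD ratio of the first probe was 4.01, and the p of the same permutation test was 0.0519. Without control array 3 the SD ratio was 4.65 for MYOD1, beside 4.43 for MSTN.

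The arrays lie in 3 slide rows with 2 arrays per group in each, and every row held 1 of the cortisol arrays low in MYOD1. Within these rows the difference in MYOD1 was -0.73, -0.48 and -0.35. Cortisol arrays 1, 3 and 5 had 11151, 10755 and 10483 probes well above background and a 75th percentile of 446.8, 264.4 and 253.7 intensity units. Cortisol arrays 2, 4 and 6 had 10170, 10566 and 10675 such probes and percentiles of 293.5, 325.6 and 342.4. Cortisol arrays 1, 3 and 5 lay in slide columns 1 or 2, and cortisol arrays 2, 4 and 6 in columns 3 or 4. Among cortisol arrays, low MYOD1 thus coincided with the lower columns. The same-numbered controls were split alike. Their MYOD1 was at 1.73, 1.83 and 2.08 in columns 1 or 2 and at 1.97, 2.27 and 1.63 in columns 3 or 4. The part of slide position and array brightness in the MYOD1 values was not tested.

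**Figure D2:**
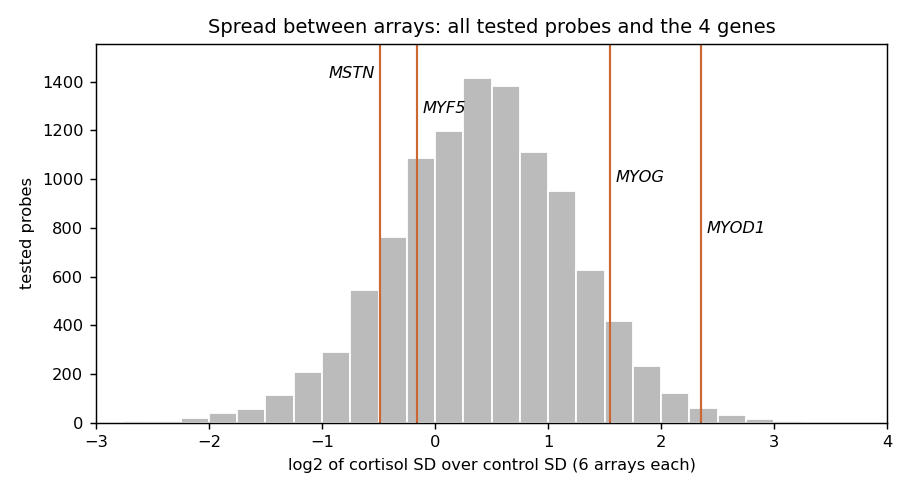
Histogram over tested probes of the log2 ratio of the SD among 6 cortisol arrays to the SD among 6 control arrays, with vertical lines at the first probe of each of the 4 genes. The bulk of probes lies to the right of 0, MYOD1 (ratio 5.10) lies in the upper tail, MYOG (2.92) below it, and MYF5 (0.897) and MSTN (0.715) left of 0.

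MYOG, the factor of terminal differentiation, had nearly the same mean in both groups by its first probe. The lowest, median and highest signals were 0.41, 0.52 and 0.97 in controls and -0.48, 0.72 and 1.02 after cortisol. Cortisol arrays 1 and 3, both low in MYOD1 too, lay below every control at -0.48 and -0.25, whereas cortisol array 5, also low in MYOD1, was at 0.84. The means were 0.60 ± 0.22 (SD, n = 6) and 0.43 ± 0.63, and the log2 fold change of -0.17 had a 95% interval of -0.72 to 0.38 and an adjusted p of 0.909 in limma. Its SD ratio of 2.92 was reached by 7.42% of probes, and the permutation test of the spread gave p = 0.245. Without cortisol array 1 the difference in means was 0.01.

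The second MYOG probe did not follow the first. Its lowest, median and highest signals were -1.94, -1.37 and -0.62 in controls and -2.86, -1.83 and -0.55 after cortisol. It was lowest on cortisol arrays 5, 3 and 1, at -2.86, -2.83 and -2.09, the same 3 arrays that were lowest in MYOD1. Its log2 fold change was -0.57 (95% interval -1.36 to 0.21), with an adjusted p of 0.773 in limma. Its SD ratio was 2.05, which 21.6% of probes reached. Across the 12 arrays the MYOG probes correlated at r = 0.40 and rho = 0.17, although they share 41 bases, and the first exceeded the second by 1.06 to 3.71 log2 units.

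Set beside MYOD1, the second MYOG probe gave r = 0.75 over 12 arrays, 0.96 within controls and 0.73 within cortisol arrays, and 1.99% of 10713 probes had an r with MYOD1 as high. The first MYOG probe gave 0.65, as high as 5.54% of probes reached, and its r was -0.64 within controls and 0.72 within cortisol arrays. These values are given as a description of arrays that share their slides and scaling. Which probe gives the level of MYOG cannot be told from these data, so that its values are uncertain.

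**Figure D3:**
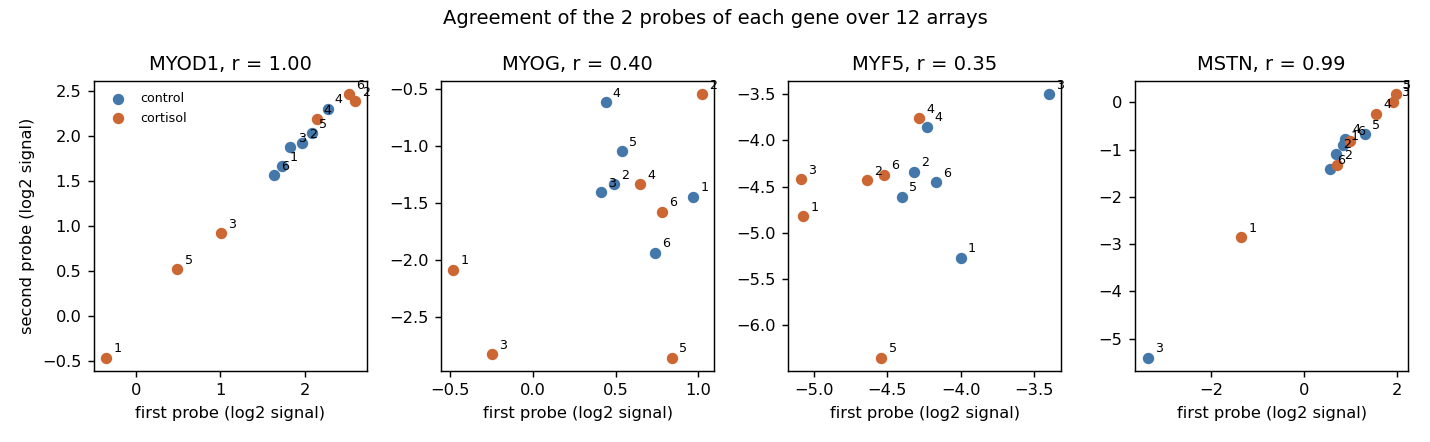
Log2 signal of the second probe against the first for each gene on the 12 arrays, coloured by group and numbered by array. The MYOD1 and MSTN probes lie along a line (r = 1.00 and 0.99), whereas those of MYOG and MYF5 scatter (r = 0.40 and 0.35).

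MYF5, the other determination factor, was near the limit of detection. Its first probe had processed intensities of 8.87 to 27.2 units in controls and 7.75 to 16.7 after cortisol, and it was detected well above background on 5 of the controls and 3 of the cortisol arrays. The lowest, median and highest log2 signals were -4.40, -4.20 and -3.40 in controls and -5.09, -4.59 and -4.28 after cortisol. All cortisol arrays other than array 4 lay below every control, a pattern that at least 5 cortisol arrays showed for 1.79% of probes. In processed intensity, before scaling, cortisol array 3 alone, at 7.75, lay below every control. Control arrays 5 and 6 were at 8.87 and 11.7 there, and had the lowest 75th percentiles, 187.3 and 210.1. The part of the scaling in the pattern was not tested.

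The mean of MYF5 was -4.09 ± 0.36 (SD, n = 6) in controls and -4.69 ± 0.32 after cortisol. The log2 fold change was -0.60 with a 95% interval of -1.03 to -0.18. The unadjusted p in limma was 0.00902 and the exact permutation p of the means was 0.00649, but the adjusted p in limma was 0.692. Without control array 3, the highest in MYF5, the difference was -0.47, with an unadjusted p in limma of 0.0191. Within the 3 slide and row sets the difference was -0.69, -0.87 and -0.25. Over all arrays it was -0.26 with normexp background correction, where the unadjusted p in limma was 0.0831, and -0.37 in the authors' deposited values, where it was 0.0197.

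The second MYF5 probe, shifted by 1 base, was detected on 4 of the controls and 5 of the cortisol arrays and placed only 1 cortisol array below every control. Its log2 fold change was -0.35 (95% interval -1.19 to 0.48), with an adjusted p of 0.873 in limma and an exact permutation p of 0.463. Without control array 3 it was -0.19. The probes correlated at r = 0.35 over the 12 arrays, and their difference on an array had an SD of 0.73. At this signal the 2 readings of MYF5 therefore do not give the same order of arrays. The SD ratio of the first probe was 0.897, which 77.5% of probes reached, but 2.11 without control array 3 and 2.00 in the authors' deposited values.

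MSTN was read alike by separate parts of its message, and a single control array decided the difference between its means. The lowest, median and highest signals of the first probe were -3.37, 0.76 and 1.30 in controls and -1.36, 1.26 and 1.97 after cortisol. Control array 3 was at -3.37 while the other 5 controls lay between 0.55 and 1.30. Cortisol arrays 3, 4 and 5, at 1.92, 1.54 and 1.97, lay above every control, cortisol array 1 lay below every control other than array 3, and 13.3% of probes had at least 3 cortisol arrays above every control.

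The mean of MSTN was 0.15 ± 1.7 (SD, n = 6) in controls and 0.96 ± 1.2 after cortisol. Cortisol minus control was 0.81 on the log2 scale (95% interval -0.82 to 2.44). The adjusted p in limma was 0.833, and the exact permutation test of the means gave p = 0.433. Without control array 3 the log2 fold change was 0.11, and without cortisol array 1 it was 1.27. Within the slide and row sets it was -1.09, 2.98 and 0.55, the second being the set that holds control array 3. The SD ratio was 0.715 with all arrays, which 87.6% of probes reached, and 4.43 without control array 3 (approximate permutation p of the spread of 1.00 and 0.0498).

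The coding probe of MSTN gave nearly the same order of arrays (rho = 0.99). Its lowest, median and highest signals were -5.40, -1.0 and -0.67 in controls and -2.86, -0.52 and 0.17 after cortisol. It followed the first probe at r = 0.99, with a difference of 1.49 to 2.03 log2 units, and its log2 fold change was 0.87 (95% interval -0.77 to 2.50, adjusted p of 0.823 in limma). Its 5 spots on an array differed with an SD of 0.030 to 0.098 log2 units on 11 arrays, which covers the variation between spots of 1 hybridisation only. On control array 3 that SD was 0.98 and 1 of the 5 spots was well above background, so the value of -5.40 there is near the detection limit. The first probe was well above background on that array.

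**Figure D4:**
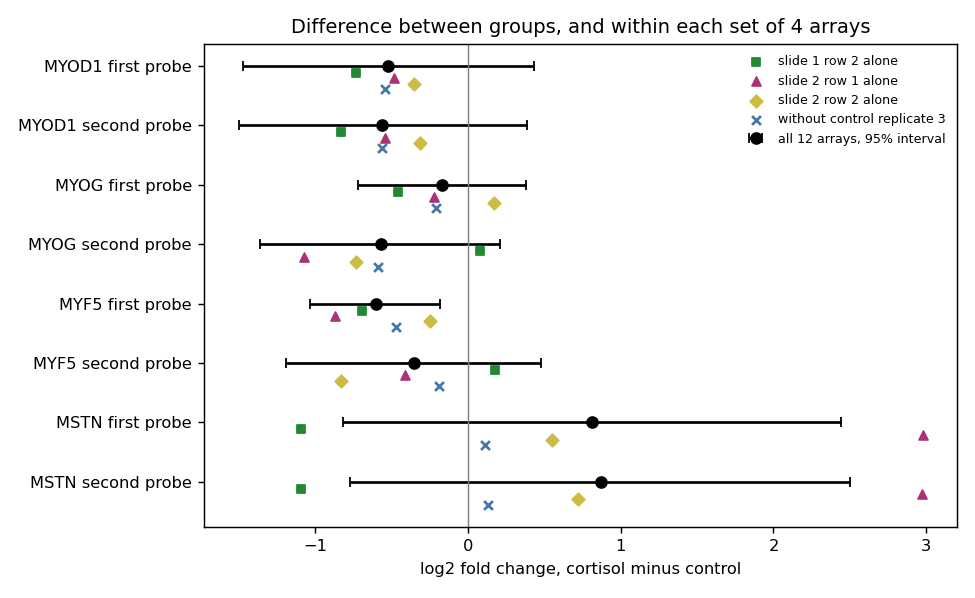
Log2 fold change, cortisol minus control, of each of the 8 probes, with its 95% interval from limma over 12 arrays (black), within each set of 4 arrays sharing a slide and row, and without control array 3. All intervals other than that of the first MYF5 probe (-1.03 to -0.18) include 0, and the MSTN values shift from 0.81 and 0.87 to 0.11 and 0.13 without control array 3.

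The 4 genes were compared with one another over the 12 arrays, in 6 pairs by their first probes. MYOD1 and MYOG had the highest correlation, with r = 0.65 (permutation p of 0.0255, Benjamini-Hochberg 0.153 over the 6 pairs) and rho = 0.38 (permutation p of 0.228, adjusted 0.685). Without cortisol array 1 alone r was 0.30 (adjusted permutation p of 0.656), without cortisol array 5 alone it was 0.85, and without both, the arrays farthest from the median of MYOD1, it was 0.68. Within groups it was -0.64 in controls and 0.72 after cortisol, so the sign within controls was the opposite.

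MYF5 and MSTN had r = -0.47 (permutation p of 0.134, adjusted 0.204) and rho = -0.39 (permutation p of 0.208, adjusted 0.685). That relation rests on control array 3, which was lowest in MSTN and highest in MYF5, since r became 0.21 without it. Without it and cortisol array 3, r was 0.57. The r of MYOG with MYF5 was 0.49. It became 0.74 without control array 3 and -0.48 without cortisol arrays 1 and 3. The r of MYOD1 was 0.46 with MYF5 and 0.15 with MSTN, and that of MYOG with MSTN was 0.29. None of the 6 pairs passed the adjustment.

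Among 616 named genes, those most like each of the 4 were ranked by r over the 12 arrays after each group's mean was subtracted, as a description without a test. For MYOD1 they were the Wnt receptor gene FZD2 (r = 0.95), the growth factor gene TGFB2 (0.91), the water channel gene AQP4 (0.88) and ACVR2B (0.87), which encodes a receptor of myostatin. FZD2 was at -1.20, -0.60 and -0.71 on cortisol arrays 1, 3 and 5 and at 0.79, 1.15 and 1.00 on cortisol arrays 2, 4 and 6, against 0.53 to 1.23 in controls. It was thus low on the same arrays as MYOD1, and its r with MYOD1 was 0.88 within controls and 0.96 within cortisol arrays. The r of AQP4 with MYOD1 was 0.96 within cortisol arrays and -0.16 within controls, a difference that was not tested. The most opposed genes were the translation initiation factor EIF3A (-0.87) and the survival gene MCL1 (-0.86).

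For MSTN the most like genes were ALDOA, a glycolytic enzyme gene (r = 0.97), the fast troponin gene TNNC2 (0.92), the potassium channel gene KCNK3 (0.91) and MYH2 (0.90). Without control array 3, r over the other 11 arrays, group means included, was 0.85 for ALDOA, 0.74 for TNNC2, 0.71 for KCNK3 and 0.73 for MYH2. Among the 6 cortisol arrays alone, r was 0.97 for ALDOA, 0.91 for TNNC2, 0.77 for KCNK3 and 0.81 for MYH2. These genes were picked by r on all 12 arrays, control array 3 included, so r on part of those arrays is not independent. On control array 3, MSTN was thus low together with MYH1 and MYH2 and with MYH7 at its highest. The most opposed genes were RCAN1, a calcineurin regulator (-0.91), and the myosin light chain gene MRCL3 (-0.85). With group means included, their r was -0.89 and -0.76 over 12 arrays, and -0.80 and -0.48 without control array 3.

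**Figure D5:**
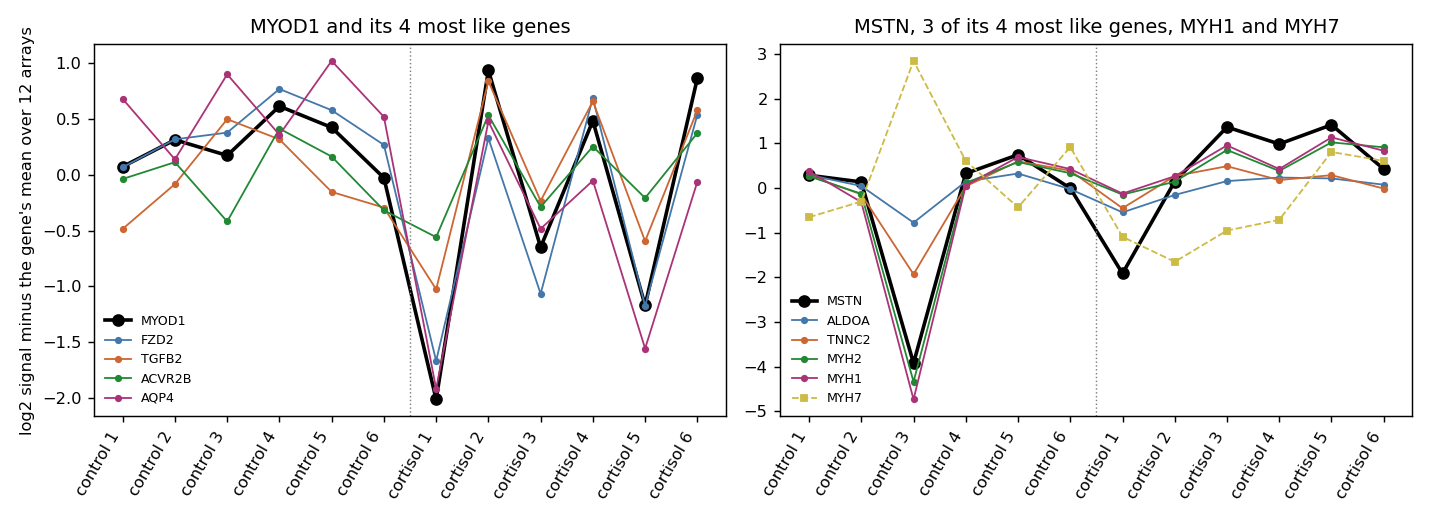
Log2 signal on each array minus the gene's mean over 12 arrays, for MYOD1 with the 4 named genes most like it (left) and for MSTN with ALDOA, TNNC2, MYH2, MYH1 and MYH7 (right), controls left of the dotted line. MYOD1 and FZD2 dip on cortisol arrays 1, 3 and 5, and MSTN, MYH1 and MYH2 are lowest on control array 3, where MYH7 is highest.

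For MYOG the most like genes by its first probe were the actin gene ACTG1 (r = 0.90), ATP6V0C of the proton pump (0.82), the receptor gene KIT (0.82) and GATD3 (0.79), and the most opposed were a chemokine-like gene listed as LOC100101238 (-0.90) and PGD (-0.80). For MYF5 they were PURA (0.83), ROBO4 (0.76), PER2 (0.74) and the growth factor receptor gene FGFR1 (0.74), opposed by the ribosomal protein genes RPS6 (-0.83) and RPL4 (-0.77). With group means included, r with MYF5 over 12 arrays was 0.70, 0.78, 0.45, 0.52, -0.79 and -0.74 in that order. Without control array 3, highest in MYF5, it was 0.54, 0.64, 0.39, 0.42, -0.65 and -0.61. The rankings for MYOG and MYF5 carry the uncertainty of their probes. KIT had a signal about as low as MYF5, at -4.80 to -3.85 in controls and -5.38 to -3.71 after cortisol.

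The myostatin and activin pathway was the best covered of the neighbouring gene groups, with 22 of 49 listed genes measured. None passed the adjusted threshold in limma in either direction and none had an unadjusted p under 0.05. The means of 13 were higher after cortisol and of 9 lower, with a median log2 fold change of 0.05 against -0.01 over all 617 named genes. Among the ligands, the log2 fold change was -0.53 (95% interval -1.41 to 0.34) for INHA, the inhibin alpha subunit, and -0.26 (-0.86 to 0.33) for INHBA, the activin A subunit. FST, whose product follistatin binds and blocks myostatin and activin, was at 1.52 ± 0.25 (SD, n = 6) in controls and at 1.73 ± 0.55 after cortisol, which is a difference of 0.21 (-0.29 to 0.71).

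Of the receptors, ACVR2B was at 0.48 ± 0.31 in controls and at 0.51 ± 0.43 after cortisol (SD, n = 6), a difference of 0.03 (95% interval -0.43 to 0.49). ACVR2A had -0.05 (-0.35 to 0.24), the bone morphogenetic protein receptor gene BMPR1B 0.46 (-0.05 to 0.96) and TGFBR2 0.21 (-0.26 to 0.67). SMAD7, the inhibitory SMAD, had 0.32 (-0.19 to 0.82), and SMAD2 and SMAD3, which carry the myostatin signal, had -0.07 and -0.11, the latter from a probe detected on 3 arrays of each group.

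The partners and co-regulators of the myogenic factors were thinly covered, with 3 of 42 listed genes measured and 0 past the threshold in limma. The log2 fold change of BHLHE40, a repressor of the same protein class, was 0.65 (95% interval -0.58 to 1.87), and the repressors SNAI1 and SNAI2 had -0.65 (-1.34 to 0.05) and -0.32 (-0.74 to 0.11). Of 38 satellite cell and fusion genes 11 were measured, 8 with a higher and 3 with a lower mean and a median of 0.05. CXCR4, a chemokine receptor of migrating myoblasts, had -0.40, MET, the receptor for hepatocyte growth factor, had 0.37, and the cell cycle inhibitors CDKN1B and CDKN1C had 0.38 and -0.36. JAG1, a Notch ligand, had 0.23 and IGF1 0.19, and 0 of the 11 passed the threshold or had an unadjusted p under 0.05 in limma.

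Of 52 genes listed as muscle differentiation targets of myogenic factors, 10 were measured, 7 with a higher and 3 with a lower mean. Their median log2 fold change was 0.22. None passed the adjusted threshold in limma, and 2 had an unadjusted p under 0.05, against 6.82% of all tested probes. They were the ubiquitin ligase gene FBXO32 at 1.53 (95% interval 0.01 to 3.05) and the myoglobin gene MB at -1.46 (-2.49 to -0.43). Whether myogenic factors act on either gene in this muscle was not tested. FBXO32 was at 2.66, 2.61 and 2.82 on cortisol arrays 1, 3 and 5, the arrays low in MYOD1. It was at -0.91, -0.86 and 0.17 on cortisol arrays 2, 4 and 6, against -1.60 to 0.56 in controls. Its relation to MYOD1 was not tested. MYH1, MYH2 and the tropomyosin gene TPM1 had 1.17, 1.06 and 0.96, and MYH7 had -1.0. The first 3 were lowest on control array 3, and without it the differences in means of the 4 genes were 0.34, 0.29, -0.08 and -0.53. The list then had 5 genes higher and 5 lower with a median of -0.04, an alternative chosen after seeing the data, whereas the pathway list above kept its counts of 13 and 9, with a median of 0.08.

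Markers of other cell types were examined beside these values. Of 9 leukocyte markers 6 are on the array and 3 were measured, all with higher means after cortisol. ITGB2 and FCER1G had an unadjusted p under 0.05 in limma, against 6.82% of all tested probes, but an adjusted p of 0.692. The summed signal of the 3, in multiples of the percentile, was 0.398 to 0.581 in controls and 0.514 to 0.863 after cortisol. Of 5 fibroblast and matrix markers 2 were higher and 3 lower, of 5 endothelial markers 1 and 4 (0 and 5 without control array 3), and of 3 erythroid markers 2 and 1. Of 4 adipocyte markers 2 were higher and 2 lower, with FABP4 at 1.65 (95% interval 0.20 to 3.10, unadjusted p of 0.0288 and adjusted p of 0.692 in limma), a probe detected on 2 of the controls and 4 of the cortisol arrays. Both measured tendon and cartilage markers had lower means, with TNMD at -1.63 (-3.95 to 0.70) and COL2A1 at -0.28. Of 2 smooth muscle markers 1 was higher and 1 lower, and the 1 measured Schwann cell marker had -0.29. The summed fibroblast signal was 96.6 to 173 in controls and 98.1 to 212 after cortisol, and the summed erythroid signal 2.15 to 26.8 and 2.58 to 41.5. Their part in the values of the 4 genes was not tested.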

How the data were processed

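Scanner files of 12 arrays were read. Per the labels, 500 ng RNA was labelled with Cy3, and per the submitters' processing notes Agilent Feature Extraction 10.1.1.1 read the scans. The deposited files hold, per the file headers, processed spot intensity, background-subtracted and not scaled between arrays, and other columns of 0 or 1 flags. The deposited table holds log2 values by the authors, with column medians of 5.976 to 5.993. They rank probes as median signal minus background does (Spearman 1.0 on every array), so their direction is known, but the sources used here do not give their normalization method.

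Of 15744 spots, 15208 are not controls. Outlier-flagged spots were dropped and spots of a probe averaged. Signals are log2 of processed intensity minus the array's 75th percentile of the same. Tested probes (10730 of 15008) were those well above background on 6 or more arrays. They were compared with limma 3.58.1 in R 4.3.3 (lmFit, eBayes, two-sided, no covariate, Benjamini-Hochberg over all tested probes, threshold 0.05). The fit was checked only on simulated normal data with the same SD in both groups, unlike the larger spread among cortisol arrays here. Of the tested probes, 10715 had a value on every array. Exact permutation tests of the means used all 924 splits into groups of 6. The test of the spread used the same splits of absolute deviations from each group's own median. These medians were not recomputed for each split, so its p is approximate. With an array left out, it used every split of the remaining arrays at the remaining group sizes. Correlations used 100000 permutations. All of these ran in Python 3.11.15 (scipy 1.17.1, numpy 2.4.6, pandas 2.3.3, with matplotlib 3.10.9 for figures). The number of arrays limits the precision: log2 fold changes had a median standard error of 0.21.

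Names came from RefSeq accession (713 probes), Entrez number (139), symbol (497), synonym (20) or a hand-made table (41), and 13584 probes had none. The brightest probe stood for a gene. Of each gene list up to 6 genes with the largest change were named, and for each of the 4 genes the 4 most like and 2 most opposed. SMAD2, SMAD3, ACVR2A and ACVR2B were named beside that rule for their role in myostatin signalling, and FABP4 as a marker, after their values were seen. The members, lists and tests were chosen with earlier results of these data known. Alternatives were median or quantile scaling, the deposited values, normexp (offset 50), other filters, outlier spots kept, blocks, slide and row sets alone, array weights, another variance model and each array left out.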

Additional observations from a re-analysis of the deposited data

Results flagged for a closer look

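Of 16 sets of 6 values (8 probes in 2 groups), 2 held a value far from the others of its group by Dixon's criterion, which chance alone would pass in about 1 in 20 sets. Both belong to MSTN on control array 3: the first probe was at -3.37, where the other controls were at 0.55 or more, and the coding probe was at -5.40. As both probes read the same RNA sample, they count as 1 observation on 1 fetus. No value of MYOD1, MYOG or MYF5 passed that limit.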

How the results depend on the processing

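With each of 24 alternatives, leaving out each array in turn among them, 0 probes passed the adjusted threshold, and with the arrays of slide 1 row 2 alone 1 probe did. No label says what a replicate number marks. The deviations of same-numbered arrays correlated at 0.21, 0.07, 0.12, 0.21, -0.11 and 0.25, and control arrays 3, 4 and 6 correlated best with their own number. As this did not hold for every pair, the numbers were not taken to pair the groups. With the replicate number as a block 0 probes passed, 843 against 732 had an unadjusted p under 0.05, and the log2 fold changes of MYOD1, MYOG, MYF5 and MSTN were -0.52, -0.17, -0.60 and 0.81. With one array left out, MYOD1 ranged from -0.76 to -0.17, MYOG from -0.29 to 0.01, MYF5 from -0.69 to -0.47 and MSTN from 0.11 to 1.27, and the second probes from -0.78 to -0.20, -0.84 to -0.38, -0.54 to -0.02 and 0.13 to 1.27. Within slide and row sets of 4 arrays the sign turned in slide 2 row 2 for MYOG (0.17) and in slide 1 row 2 for its second probe (0.08), the second MYF5 probe (0.18) and both MSTN probes (-1.09). The cause was not tested. Requiring detection on all arrays leaves no value for MYF5 and the coding MSTN probe. The SD ratio with one array left out was 4.01 to 6.74 for MYOD1, 2.30 to 4.84 for MYOG, 0.791 to 2.11 for MYF5 (2.00 in the deposited table) and 0.324 to 4.43 for MSTN. The correlations with one array left out were 0.30 to 0.85 for MYOD1 with MYOG, 0.20 to 0.58 with MYF5 and -0.22 to 0.36 with MSTN, 0.26 to 0.74 for MYOG with MYF5 and 0.02 to 0.54 with MSTN, and -0.82 to 0.21 for MYF5 with MSTN. MYOD1 with MYOG passed without cortisol array 5 (adjusted permutation p of 0.0152), as did MYF5 with MSTN without cortisol array 1 (0.0237). Over all 12 arrays, the r of MYF5 with MSTN was 0.26 with normexp correction and 0.07 in the deposited table. Low signal limits what MYF5 can show.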
